A study of Mus musculus with 30 samples.

Results

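The genes described here are 10 genes by which vascular smooth muscle cells and pericytes are usually recognised: Acta2, Myh11, Tagln, Cnn1, Mylk, Smtn, Pdgfrb, Abcc9, Cspg4 and Notch3. They were chosen by name, and their values were read from 2 tables of left ventricular RNA, where they are 10 of 49671 genes in the peptide table and 10 of 56386 genes in the antibody table. All 10 were found in both tables, and all 10 reached in each a mean of 10 counts per heart, the minimum for testing.

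The hearts came from male wild-type C57BL6J mice in 2 experiments that were run and sequenced as separate tables. In the peptide study, 7 mice received recombinant human amyloid beta 42 (Aβ42) and 7 received a peptide with the same residues in scrambled order (ScrAβ42), by daily intraperitoneal injection from 12 weeks of age for 4 weeks. In the antibody study, 8 mice received 3D6, an antibody that neutralises Aβ42, and 8 received a control antibody of the IgG2a class, weekly by intraperitoneal injection, beginning a week after a baseline examination at 12 weeks of age. The labels give the peptide as 1 mg per day whereas the methods of the study give a dose in micrograms, and the labels describe the antibody mice as also given Aβ42 whereas the methods describe them as fed a high-fat diet, so which of these both antibody groups share is unsettled here. The 2 comparisons ask whether Aβ42, and its neutralisation, change the ventricular transcriptome, and each is treated within its own table.

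Vascular smooth muscle cells wrap arteries and arterioles and narrow them by contraction, which is driven by a smooth muscle myosin sliding on smooth muscle actin filaments. Pericytes sit on capillaries, are held there by signalling from endothelial PDGF-B to the receptor PDGFRβ, and carry little of the contractile apparatus. Notch3 signalling maintains both cell types. In bulk tissue, fewer cells of a type and less RNA per cell cannot be told apart.

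Each gene has a distinct position and part in this machinery. Acta2 (smooth muscle α-actin) lies at chr19:34241090-34255590 and Myh11 (smooth muscle myosin heavy chain) at chr16:14194535-14291372, both on the minus strand of GRCm38. Tagln (transgelin, an actin-binding protein) lies at chr9:45929619-45936058 on the minus strand and Cnn1 (calponin, which binds actin and restrains the myosin ATPase) at chr9:22099216-22109630 on the plus strand. Mylk (myosin light chain kinase, which starts contraction) is at chr16:34745210-35002420 on the plus strand, and Smtn (smoothelin, a cytoskeletal protein) at chr11:3517523-3540612 on the minus strand.

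Among the genes for surface proteins, Abcc9 encodes the sulphonylurea receptor SUR2, the regulatory subunit of an ATP-sensitive potassium channel in muscle and pericytes, at chr6:142587862-142702315 on the minus strand. Cspg4 encodes the NG2 proteoglycan at chr9:56865033-56899870 on the plus strand, and Notch3 a receptor of the Notch pathway at chr17:32120820-32166852 on the minus strand. Pdgfrb encodes the PDGF-B receptor.

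Abcc9 is shown by sequence because its splicing decides which SUR2 protein is made and because the antibody table gives estimated counts for each form. Of the 3 transcripts counted, Abcc9-201 and Abcc9-204 end their coding sequence in the exon of SUR2A, the form best known from heart muscle, and the other ends in the exon of SUR2B, the form best known from smooth muscle. Both last coding stretches are 135 bases long and were taken from GENCODE on GRCm38, minus strand, at chr6:142594008-142594142 for SUR2A and chr6:142590369-142590503 for SUR2B. They are written 5′ to 3′ with capitals at the 66 bases that differ from the other form at the same place, counted without gaps.
SUR2A end: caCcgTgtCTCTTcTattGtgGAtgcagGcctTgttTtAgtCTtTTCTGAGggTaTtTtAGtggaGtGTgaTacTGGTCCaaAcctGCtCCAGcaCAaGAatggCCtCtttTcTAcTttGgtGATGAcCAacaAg
SUR2B end: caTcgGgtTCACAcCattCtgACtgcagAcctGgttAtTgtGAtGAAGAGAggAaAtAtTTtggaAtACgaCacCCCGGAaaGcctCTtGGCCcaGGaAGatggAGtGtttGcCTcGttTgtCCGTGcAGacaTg
The 2 coding ends share 69 bases (51.1%) at the same places. All 3 transcripts run on to the same last position, 142587862, which lies beyond both stretches. The SUR2A transcripts may therefore also hold the SUR2B stretch as untranslated sequence, which was not examined. Abcc9-201 and Abcc9-204 have the same coding end and differ elsewhere, so the split between those 2 transcripts is uncertain. The split between SUR2A and SUR2B also rests on estimated counts, and how reads were divided between the forms was not measured.

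The contractile genes are known targets of serum response factor, which binds the CArG box (CC, 6 bases of A or T, then GG). Promoters of 7 of the 10 genes, the contractile genes Acta2, Cnn1, Mylk and Smtn and the surface genes Abcc9, Cspg4 and Notch3, were taken from the RefSeq promoter table on GRCm38.p6 (Myh11, Tagln and Pdgfrb were not searched), each from 250 bases before to 50 after the start. The strict box was in 0 of those 7 and in 1.63% of all 32851 promoters. The motif reads alike on both strands, so 1 search covers both. With 1 of the 6 inner bases allowed to be C or G, the motif was found in 1 of the 7, Acta2, which held 2 copies, while 9.98% of all promoters held at least 1 copy and 0.822% held 2 or more. They are shown as 30-base windows on the minus strand with the decamer in capitals.
Acta2, chr19:34255438-34255467: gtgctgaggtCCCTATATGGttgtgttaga
Acta2, chr19:34255388-34255417: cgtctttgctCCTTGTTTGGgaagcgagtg
The first decamer begins 84 bases and the second 34 bases before the RefSeq start. Both windows lie in the first exon of Acta2-201 as GENCODE places it. The matches describe letters only, and no binding was measured.

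Total counts per heart ran from 4478991 to 6015767 in the peptide study, and from 6397192 to 8310478 with the antibodies. The 10 genes had means of 19.5 to 1607.5 counts per heart. All 10 genes had counts in every heart. The 6 endothelial, 6 fibroblast and 6 ventricular cardiomyocyte markers were also above 0 in every heart, and the ventricular markers summed to 39772 to 79768 CPM (the count of a gene scaled by library size, with the TMM method of edgeR) with the peptides and 43275 to 53823 with the antibodies. One Aβ42 heart, named Ab57 in the table, stood apart, as it was the highest of the 14 hearts in 21.3% and the lowest in 22.2% of the 11985 genes tested. Control antibody heart 22 was likewise the highest of 16 in 25.2% and the lowest in 24.8% of 12274 genes. Results of the peptide study are therefore given with and without heart Ab57.

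Set per kilobase of exon and taken as the median over all hearts of a study, the order of levels was similar in both tables for most of the genes. In the peptide study Abcc9 was highest at 43.2 CPM per kb, followed by Acta2 at 39.6, Smtn at 33.2 and Pdgfrb at 15.9. Abcc9, Acta2 and Smtn overlapped across hearts, as did Myh11 and Notch3, and Cnn1 and Tagln were lowest at 1.07 and 1.03. Pdgfrb lay below Smtn in every heart. In the antibody study Acta2 led at 38.2 CPM per kb, followed by Smtn at 30.5 and Abcc9 at 20.7, with overlap between neighbours, and Cnn1 was lowest at 0.894. Tagln was the one gene that changed place by more than 2 ranks, being 10th in the peptide table and 4th, at 12.8 CPM per kb, in the antibody table. The tables were made and scaled separately, so levels set across them are a description. Acta2 reads can be shared with the near-identical actin genes Actc1 and Acta1, of which Actc1 averaged 6693 CPM in the peptide table and 6316 in the other. How such reads were divided was not measured.

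With Aβ42, none of the 10 genes passed the test for a change. The contractile genes had higher means with Aβ42, by 0.18 to 2.51 on the log2 scale, but this rested on heart Ab57, in which smooth muscle myosin, actin, transgelin and calponin transcripts were 10.4 to 42.9 times the median of the other 13 hearts. Without that heart, 8 of the 10 genes were lower with Aβ42, by no more than 0.36 on the log2 scale, and 2 were higher. The quasi-likelihood test of edgeR was adjusted over 11985 genes by the Benjamini-Hochberg method. In it 0 of the 10 passed an adjusted p of 0.05, beside 0% of all genes. DESeq2 also called 0 of the 10, beside 12 of all genes, but gave no adjusted p for Tagln and Cnn1. At an unadjusted p under 0.05 the edgeR test had 1 of the 10, Cnn1, beside 6.51% of all genes.

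**Figure D1:**
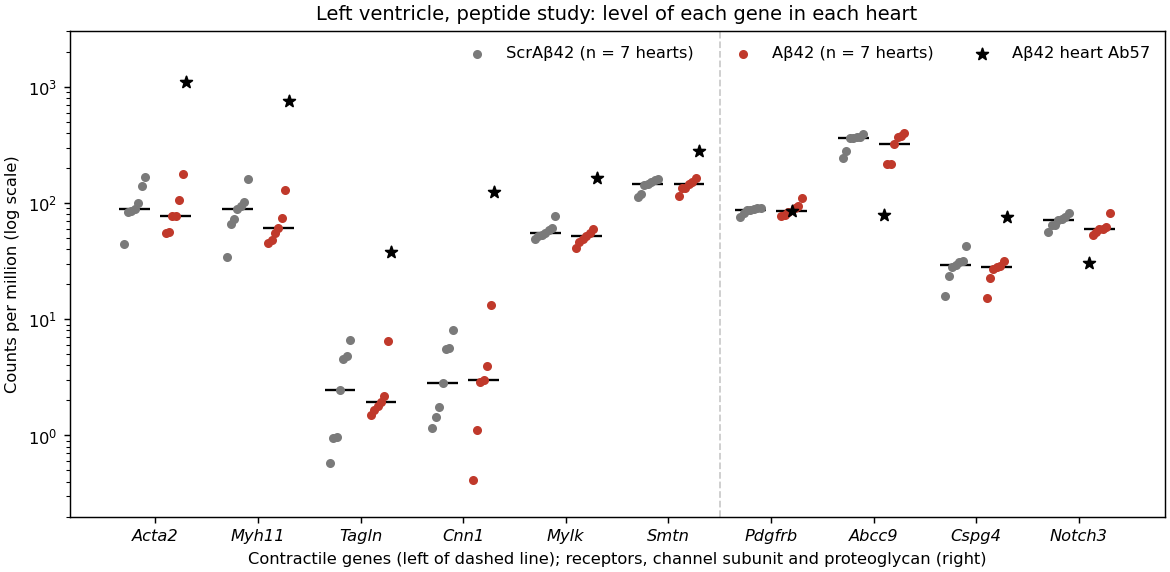
Level of the 10 genes in each heart of the peptide study, in CPM on a log axis. Grey points are 7 ScrAβ42 hearts, red points and the black star are 7 Aβ42 hearts, and the black lines are group medians. The star, heart Ab57, is the highest heart in 7 genes and the lowest in Abcc9 and Notch3, and the other hearts of both groups overlap in every gene.

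Acta2 ran from 54.8 to 1104 CPM in the Aβ42 hearts, with a median of 77.4, and from 44.0 to 167 in the ScrAβ42 hearts, with a median of 89.3. The 6 Aβ42 hearts other than Ab57 lay within 54.8 to 177.5 CPM, so the groups overlapped almost fully. The difference was 1.22 on the log2 scale (SE 0.64, edgeR unadjusted p = 0.0749, adjusted p = 0.775) with 3 of 7 Aβ42 hearts above the ScrAβ42 median, and -0.15 (SE 0.30, adjusted p = 1.00) without heart Ab57.

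Myh11, the gene most restricted to smooth muscle of the 10, had a lowest, median and highest value of 44.8, 61.2 and 750 CPM with Aβ42 and of 34.1, 89.1 and 160 with ScrAβ42. Heart Ab57 was again alone, the next Aβ42 heart being at 129 CPM. Its difference of 0.92 (SE 0.61, edgeR adjusted p = 0.832) became -0.36 (SE 0.30, adjusted p = 0.967) without that heart, and 2 of 7 Aβ42 hearts were above the ScrAβ42 median.

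Tagln and Cnn1, which code for actin-binding proteins of the contractile state, were the lowest genes of the group in this table. Tagln had 1.499, 1.93 and 37.8 CPM as lowest, median and highest in Aβ42 hearts and 0.581, 2.48 and 6.65 in ScrAβ42 hearts. Cnn1 had 0.414, 2.98 and 124 CPM with Aβ42 and 1.16, 2.83 and 8.09 with ScrAβ42, and counts as low as 2 in a heart limit its precision. In both genes the medians lay close together and heart Ab57 was 19.5 times (Tagln) and 42.9 times (Cnn1) the median of the other 13 hearts. The Cnn1 difference of 2.51 (SE 1.01, unadjusted p = 0.0249, edgeR adjusted p = 0.709), with 5 of 7 Aβ42 hearts above the ScrAβ42 median, was 0.10 (SE 0.60, adjusted p = 1.00) without heart Ab57. For Tagln the difference went from 1.38 (SE 0.79, adjusted p = 0.798) to -0.22 (SE 0.52, adjusted p = 1.00). On the opposite strand, the antisense gene Gm48529 overlaps Tagln by 3627 bases and the end of Pcsk7 by 108 bases. Longer overlaps with genes of the opposite strand lie at Notch3 (21024 bases), Mylk (15820), Abcc9 (11868) and Smtn (6700). The gene with that overlap at Mylk has no entry in the peptide table. The libraries were stranded, and whether any reads were shared was not measured.

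Mylk and Smtn differed less. Mylk ran from 41.2 to 165 CPM with Aβ42 (median 52.3) and from 48.6 to 77.1 with ScrAβ42 (median 55.3), and Smtn from 115 to 280 with Aβ42 (median 145) and from 112 to 161 with ScrAβ42 (median 146). Their differences of 0.22 (SE 0.27) and 0.18 (SE 0.16) became -0.19 (SE 0.11) and -0.01 (SE 0.10) without heart Ab57, where Mylk was 3.11 times and Smtn 1.93 times the median of the others. Neither passed the test in either fit. Both genes are made outside smooth muscle as well, and neither is a measure of smooth muscle alone.

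Of the surface genes, Cspg4 alone was higher in heart Ab57, as the contractile genes were. Pdgfrb (chr18:61045150-61085061, plus strand) was nearly constant, from 76.5 to 109 CPM with Aβ42 (median 84.6) and from 75.1 to 91.3 with ScrAβ42 (median 87.7), with a difference of 0.04 (SE 0.08, 95% interval -0.13 to 0.20, edgeR adjusted p = 0.954). In heart Ab57 it was at 84.6 CPM, 0.965 times the median of the other hearts. This is the narrowest interval of the 10 genes in the peptide study.

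Abcc9 and Notch3 were lowest in heart Ab57. Abcc9 ran from 79.4 to 403 CPM with Aβ42 (median 323) and from 244 to 391 with ScrAβ42 (median 364), a difference of -0.26 (SE 0.26, edgeR adjusted p = 0.901), or -0.10 (SE 0.16) without heart Ab57. Notch3 ran from 30.4 to 82.1 CPM with Aβ42 (median 59.5) and from 56.1 to 81.5 with ScrAβ42 (median 72.0). Its difference was -0.28 (SE 0.15, unadjusted p = 0.0930, adjusted p = 0.793), or -0.16 (SE 0.10) without heart Ab57, and 1 of 7 Aβ42 hearts was above the ScrAβ42 median. In heart Ab57 Abcc9 was at 0.218 times and Notch3 at 0.467 times the median of the others, values reached by few genes, since 3.49% of all genes tested were at 0.5 times or less. Cspg4 went the other way, at 2.71 times, with 15.3 to 76.1 CPM over the Aβ42 hearts and 15.9 to 42.7 over the ScrAβ42 hearts, and its difference of 0.19 (SE 0.29) became -0.18 (SE 0.19).

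Heart Ab57 also differed in markers of other cell types, whose part in these results was not tested. Its 5 atrial markers, including Sln and Myl7, summed to 8417 CPM against 3.82 to 4707 in the other 13 hearts, with none of them at 0. Its 5 adipocyte markers summed to 280 CPM and its 5 mesothelial markers to 174, both the highest of the study. All 6 ventricular cardiomyocyte markers were below the median of the other hearts, from 0.130 times (Myl2) to 0.920 times (Ryr2), and summed to 39772 CPM, the lowest of the study. Its share of counts on the mitochondrial genome, 12.9%, was the lowest of the 14 hearts, which reached 22.2%, and its 5 blood markers were 0.451 to 0.523 times the median of the others. The 6 fibroblast markers were 1.33 to 3.18 times that median and the 6 endothelial markers 0.626 to 1.70 times. At 5 times the median or more stood 4 of the 10 genes, beside 1.79% of all genes tested. Atrial markers also summed to 1158, 4707 and 4357 CPM in the Aβ42 hearts Ab51, Ab55 and Ab58 and to 3665 in the ScrAβ42 heart Sc48, and Acta2 in those hearts was between 76.7 and 177.5 CPM.

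In a list of 14 further smooth muscle genes, the calls at an unadjusted p also depended on heart Ab57. With Aβ42, 10 of the 14 were higher and 4 lower, with a median of 0.33 on the log2 scale against 0.0015 over all genes tested, and 5 had an unadjusted p under 0.05, beside 6.51% of all genes, though 0 passed the adjusted threshold. The 5 were Itga8 (integrin α8, 2.64, SE 0.95), Tpm2 (β-tropomyosin, 1.49, SE 0.55), Kcnmb1 (a subunit of the calcium-activated potassium channel, 1.35, SE 0.56), Myl9 (regulatory myosin light chain, 1.23, SE 0.57) and Pgm5 (0.24, SE 0.11), with edgeR adjusted p between 0.693 and 0.758. Without heart Ab57 none of the 13 still tested had an unadjusted p under 0.05, beside 5.14% of all genes. Of these 13, 9 were higher and 4 lower, and the median was 0.02. Actg2, higher with Aβ42 at 1.53 (SE 0.89) over all hearts, was no longer tested without that heart. In heart Ab57 itself Itga8 stood at 40.9 times the median of the others. The 2 most abundant genes of the list, Des and Ppp1r12b, which heart muscle also makes, differed by -0.07 (SE 0.16) and -0.11 (SE 0.07). Without heart Ab57 Des differed by 0.04 (SE 0.09) and Ppp1r12b by -0.10 (SE 0.07).

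The further pericyte genes were mostly below the other hearts in Ab57. Of 10 listed, 7 were below the median of the other 13 hearts in heart Ab57, among them Vtn at 0.437, Kcnj8 (the pore-forming partner of Abcc9 in the pericyte channel) at 0.459 and Rgs5 at 0.503 times, and Mcam, Anpep and Tbx18 were at 3.29, 2.40 and 2.48 times. Between the treatments 4 of the 10 were higher and 6 lower with Aβ42 (5 and 5 without heart Ab57), and the median was -0.06. Of the 10, 0 had an unadjusted p under 0.05, beside 6.51% of all genes. Rgs5, the most abundant, differed by 0.0024 (SE 0.17), and Mcam, the next, by 0.38 (SE 0.28). Without heart Ab57 the Rgs5 difference was 0.11 (SE 0.12) and that of Mcam -0.03 (SE 0.14). Of 17 tested genes of PDGF and Notch signalling, 9 were higher and 8 lower, or 6 and 11 without heart Ab57. Pdgfc, a PDGF ligand gene, had the 1 unadjusted p under 0.05 (1.13, SE 0.52, edgeR adjusted p = 0.753), beside 6.51% of all genes. Without heart Ab57 none had it, beside 5.14% of all genes. Notch4 and Notch1, the most abundant of that list, differed by -0.08 (SE 0.12) and 0.0014 (SE 0.07), or 0.0047 and 0.0064 without heart Ab57.

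With 3D6, none of the 10 genes passed the test either. The fitted level was lower in 7 genes and higher in 3, with differences from -0.24 to 0.15 on the log2 scale, with a median of -0.15 over the 10 genes against -0.0098 over all 12274 genes tested, of which 47.4% were higher. Myh11, Mylk, Notch3 and Tagln had the lowest values, -0.24 to -0.20. By edgeR's quasi-likelihood test 0 of the 10 passed the adjusted threshold, beside 0% of all genes, and 0 had an unadjusted p under 0.05, beside 3.64% of all genes. DESeq2 also called 0 of the 10.

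**Figure D2:**
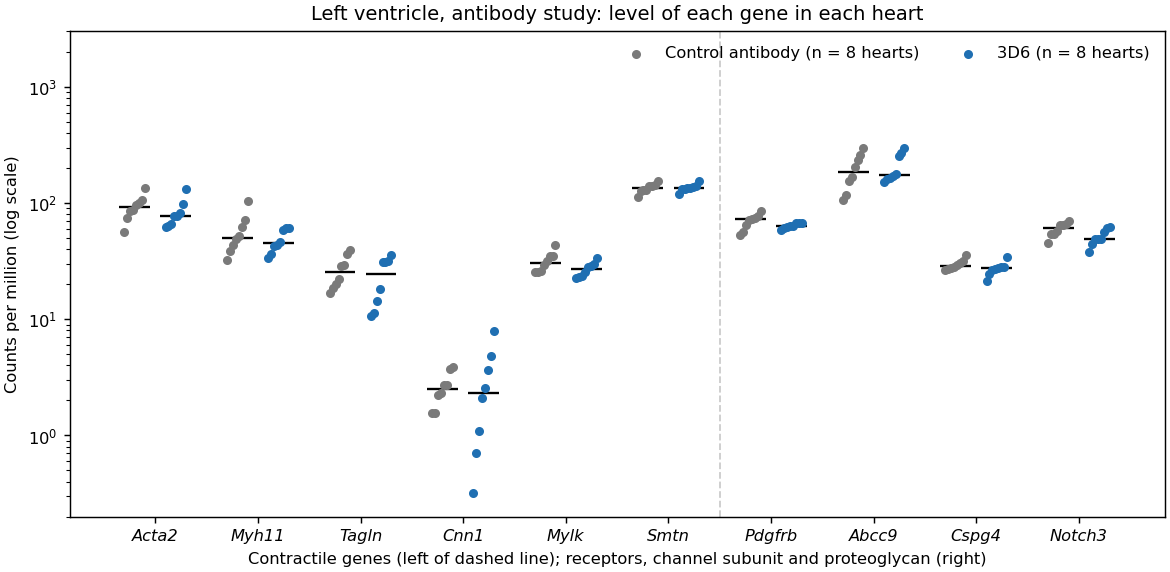
Level of the 10 genes in each heart of the antibody study, in CPM on a log axis. Grey points are 8 control antibody hearts, blue points are 8 3D6 hearts and black lines are group medians. No heart stands apart in these genes, and the groups overlap in every one of them.

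Among the contractile genes, Mylk came nearest to the threshold. It ran from 22.7 to 33.6 CPM in the 3D6 hearts, with a median of 26.9, and from 25.5 to 43.2 in the control hearts, with a median of 30.4. With 3D6, 1 of 8 hearts was above the control median, and the groups overlapped between 25.5 and 33.6 CPM. The difference was -0.23 (SE 0.12, 95% interval -0.48 to 0.02, edgeR unadjusted p = 0.0704, adjusted p = 0.946). For Myh11, the lowest, median and highest were 33.5, 45.1 and 60.5 CPM with 3D6 and 32.6, 50.3 and 103 with control antibody, a difference of -0.24 (SE 0.20, adjusted p = 0.946). The highest control heart was mouse 18, and without it the Myh11 difference was -0.06 and that of Mylk -0.15.

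In Acta2, Tagln, Cnn1 and Smtn the groups overlapped. Acta2 ran from 61.7 to 133 CPM with 3D6 (median 76.9) and from 55.9 to 134 with control antibody (median 91.9), a difference of -0.16 (SE 0.17). Tagln ran from 10.7 to 36.0 CPM with 3D6 (median 24.5) and from 16.7 to 39.4 with control antibody (median 25.5), a difference of -0.20 (SE 0.26), with 3 of 8 3D6 hearts below the lowest control heart. Without control heart 11 the Acta2 difference was -0.065, and without control heart 18 that of Tagln was -0.10. Smtn was the steadiest of the contractile genes, at 120 to 155 CPM with 3D6 and 112 to 154 with control antibody, and its difference was 0.01 (SE 0.08, 95% interval -0.15 to 0.17). Cnn1 was the most variable, at 0.319 to 7.88 CPM with 3D6 (median 2.33) and 1.56 to 3.91 with control antibody (median 2.52). Its difference of 0.15 (SE 0.43) was -0.25 without the 3D6 heart of mouse 20, in which it was highest. The adjusted p of these 4 genes was 0.946 to 0.984.

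Notch3 was the gene of the 10 with the smallest p in this study. It ran from 38.0 to 62.5 CPM with 3D6 (median 48.9) and from 45.3 to 69.7 with control antibody (median 61.1), and 2 of 8 3D6 hearts were above the control median. The difference was -0.22 (SE 0.11, 95% interval -0.45 to 0.01, edgeR unadjusted p = 0.0567, adjusted p = 0.946). Pdgfrb ran from 58.5 to 66.9 CPM with 3D6 (median 63.2) and from 53.4 to 85.6 with control antibody (median 72.2), so none of the 8 3D6 hearts was above the control median. Its difference was -0.13 (SE 0.09, 95% interval -0.32 to 0.06), and -0.08 without control heart 22, in which Pdgfrb and Notch3 were both highest. Without that heart the Notch3 difference was -0.18 (SE 0.11, edgeR unadjusted p = 0.122). Cspg4 differed by -0.11 (SE 0.09) and Abcc9 by 0.09 (SE 0.21), the latter with 152 to 294 CPM over the 3D6 hearts and 105 to 296 over the control hearts. The Abcc9 difference ran from 0.0066 (without heart 7) to 0.21 (without heart 8) when single hearts were left out, and was 0.01 without heart 22, and that of Cspg4 was -0.071 without heart 4.

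**Figure D3:**
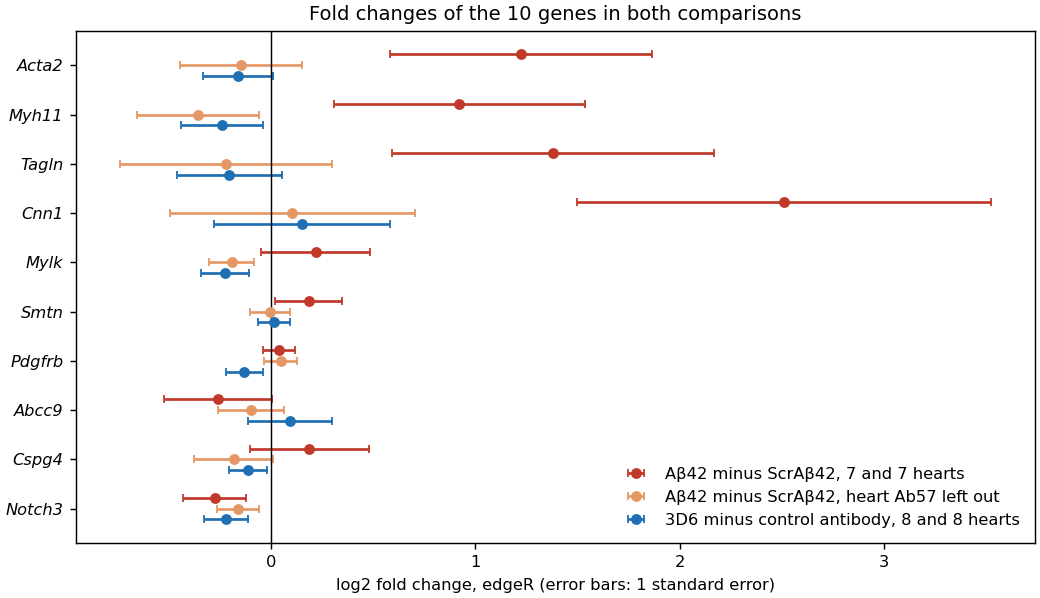
Difference of each gene on the log2 scale from edgeR, with bars of 1 standard error. Red points are Aβ42 minus ScrAβ42 with all 14 hearts, orange points the same without heart Ab57, and blue points 3D6 minus control antibody. The red points of Acta2, Myh11, Tagln and Cnn1 lie between 0.92 and 2.51, and the orange points of those genes lie between -0.36 and 0.10.

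The other pericyte genes were lower with 3D6 in all 10 of 10 cases, from -0.35 (Vtn) to -0.02 (Steap4), but 0 passed the adjusted threshold. Their median was -0.21, beside -0.0098 over all genes tested, of which 47.4% were higher. Vtn (vitronectin, -0.35, SE 0.13, unadjusted p = 0.0134) and Anpep (the aminopeptidase CD13, -0.24, SE 0.11, unadjusted p = 0.0445) had an unadjusted p under 0.05, beside 3.64% of all genes, with an edgeR adjusted p of 0.946. Rgs5 (-0.10, SE 0.08) and Mcam (-0.22, SE 0.12) were the most abundant. Without control heart 22 the 10 were still lower and their median was -0.13. The 6 endothelial markers were lower with 3D6 as well (median -0.165, or -0.070 with 4 of 6 lower without heart 22), as were the 6 fibroblast markers (median -0.10), and their part in these values was not tested. Of the 17 genes of PDGF and Notch signalling tested, 13 were lower and 4 higher (median -0.12), or 11 and 6 without heart 22 (median -0.05). Among them were Dll4 (-0.29, SE 0.09, unadjusted p = 0.00508) and Notch4 (-0.30, SE 0.11, unadjusted p = 0.0114), an endothelial ligand and an endothelial receptor. Both had an unadjusted p under 0.05, against the same 3.64% of all genes, and an edgeR adjusted p of 0.946. Notch1, the most abundant, differed by -0.12 (SE 0.11), or -0.05 (SE 0.10) without heart 22. Of 13 further smooth muscle genes tested, 6 were higher and 7 lower, and 0 had an unadjusted p under 0.05. Des and Ppp1r12b differed by 0.05 (SE 0.09) and 0.21 (SE 0.19), or 0.02 and 0.13 without heart 22.

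The transcripts of the genes were counted only in the antibody study. Of 47 annotated transcripts, 22 had a mean of at least 10 estimated counts, 1 had an unadjusted p under 0.05 beside 2.4% of 20857 transcripts tested, and 0 passed the adjusted threshold of edgeR's test, beside 0% of all. That transcript was Mylk-201, of 7824 bases, at a mean of 22.7 CPM (SD 3.24) in 8 3D6 hearts and of 28.1 CPM (SD 5.81) in 8 control hearts, a difference of -0.31 (SE 0.13, edgeR adjusted p = 1.00). The other Mylk transcript counted, of 1620 bases, had 1.98 ± 1.10 (SD, n = 8) and 1.97 ± 2.37 CPM (SD, n = 8). Mylk-201 held 84.1% ± 5.92 (SD, n = 8) of the Mylk counts with 3D6 and 88.9% ± 6.69 (SD, n = 8) with control antibody, and this share did not pass an exact permutation test (two-sided, p = 0.149, adjusted p = 0.466 over 6 genes).

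Transcripts of both SUR2 forms had estimated counts in every heart. The SUR2B transcript stood at 95.7 ± 23.7 CPM (SD, n = 8) in the 3D6 group against 92.9 ± 20.0 (SD, n = 8) in the control group, and the SUR2A transcript Abcc9-201 at 78.0 ± 23.1 and 75.9 ± 51.5 CPM. The second SUR2A transcript, Abcc9-204, was at 33.5 ± 33.6 and 25.3 ± 32.7 CPM and at 0 in 7 of 16 hearts. Of the 3 forms together, SUR2B held 47.1% ± 8.05 (SD, n = 8) in the 3D6 group against 51.4% ± 13.9 (SD, n = 8) in the control group, a difference of -4.25 points that did not pass the exact permutation test (two-sided, p = 0.481). The share ran from 35.1% to 59.4% in 3D6 hearts and from 32.9% to 77.5% in control hearts, so the groups overlapped. The highest share was that of control heart 22, without which the difference in the share of all Abcc9 counts was -0.54 points in place of -4.28.

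**Figure D4:**
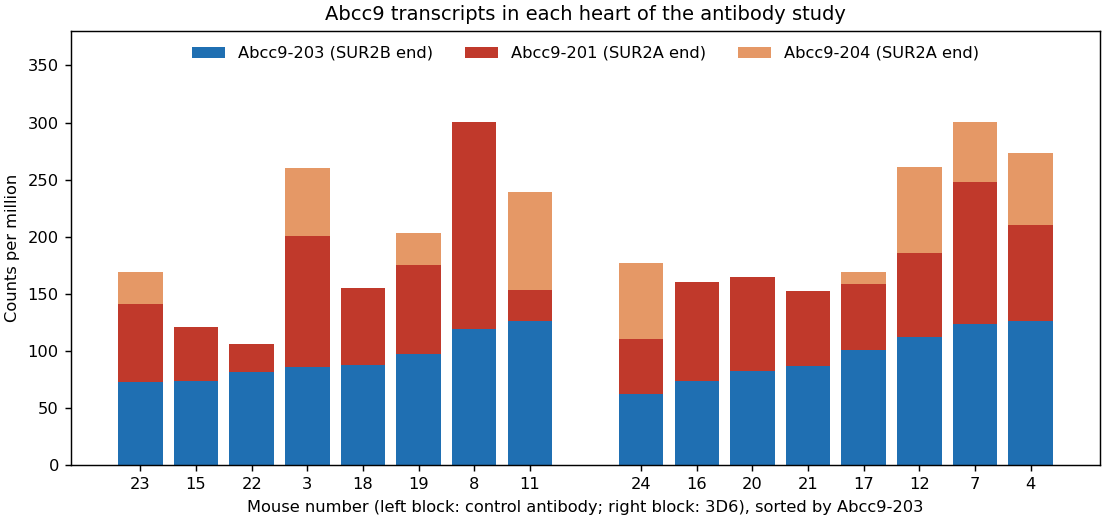
Abcc9 transcripts in each of the 16 hearts of the antibody study, in CPM, stacked. Blue is the SUR2B transcript and red and orange the SUR2A transcripts, with 8 control antibody hearts at left and 8 3D6 hearts at right, sorted by the blue part. The blue part runs from 62.0 to 126 and the orange part is absent in 7 hearts.

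The other genes with more than 1 counted transcript also overlapped between groups. Acta2-201 held 93.5% ± 3.39 (SD, n = 8) of the Acta2 counts with 3D6 and 95.55% ± 5.06 (SD, n = 8) with control antibody. Smtn-201, a short form of 1747 bases, held 52.9% ± 1.70 and 50.9% ± 3.24 of Smtn (exact permutation p = 0.155), and the longer forms of 3335 and 3117 bases were at 0 in 4 hearts and 1 heart. The leading transcripts of Myh11 and Cspg4 held 23.7% to 83.5% and 20.1% to 81.2% of their gene across hearts. Their SD within a group, 13.4 to 20.0 points, exceeded the differences between groups, -5.11 and 8.62 points. Leaving out single hearts gave -9.85 to -1.31 points for Myh11 and 4.57 to 11.56 points for Cspg4. None of the 6 shares had an adjusted p under 0.466 by the exact permutation test.

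Across hearts, the pairs of contractile genes had positive correlations in both studies, though not every pair passed the test. They were measured as Pearson's r of log2 CPM after removing group means, over all 45 pairs in each study, with permutation p adjusted over the 45. Pairs of other genes were not counted in this way, so no share over all genes stands beside these counts. Among the 15 pairs of contractile genes, all 15 were positive in the peptide study (median r 0.897, 15 with adjusted p under 0.05), all 15 without heart Ab57 (median r 0.704, 8 with adjusted p under 0.05) and all 15 in the antibody study (median r 0.592, 7 with adjusted p under 0.05). Tagln and Cnn1 stayed together in each setting, at r = 0.938 (rho 0.921, permutation adjusted p = 0.00015) in the peptide study, 0.855 without heart Ab57 and 0.773 (rho 0.827, permutation adjusted p = 0.00255) in the antibody study. Without the 2 hearts farthest from the median of Tagln, r was 0.840 and 0.636, the latter with adjusted p = 0.0714. Myh11 and Mylk gave r = 0.949 (rho 0.881, permutation adjusted p = 0.00015), 0.819 and 0.878 (rho 0.821, permutation adjusted p = 0.00135), and 0.769 and 0.809 without the 2 hearts farthest from the median of Myh11. Acta2 and Myh11, the actin and the myosin, gave r = 0.958 (rho 0.925, permutation adjusted p = 0.00015) and 0.847 without heart Ab57, but 0.344 (rho 0.535, permutation adjusted p = 0.413) with the antibodies.

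**Figure D5:**
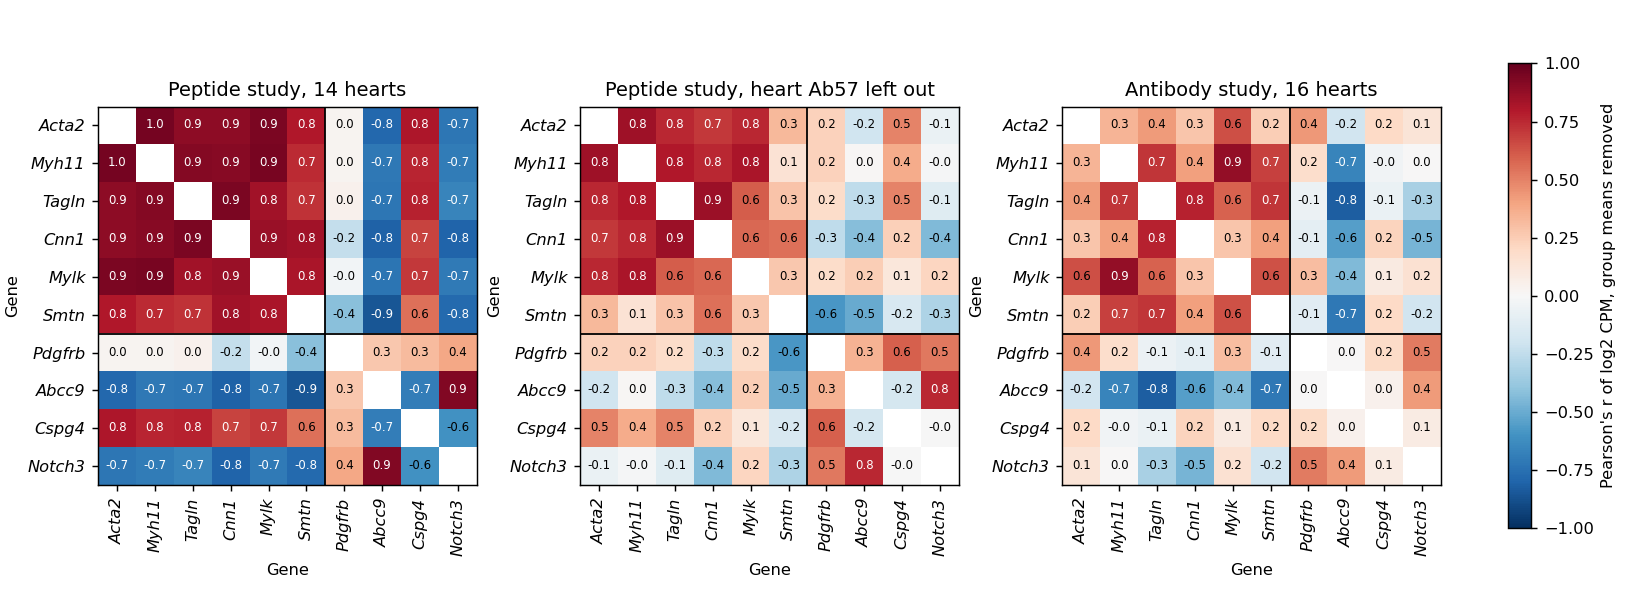
Pearson's r between the 10 genes across hearts, from blue (-1) to red (1), after removing group means. The panels are the peptide study with 14 hearts, the peptide study without heart Ab57 and the antibody study with 16 hearts, and lines part the 6 contractile genes from the 4 surface genes. The upper left block is red in all 3 panels, and the Abcc9 row is blue against the contractile genes in the first and the last.

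Abcc9 ran against several contractile genes. In the antibody study its r was -0.823 with Tagln (rho -0.762, permutation adjusted p = 0.00255), -0.716 with Smtn (rho -0.738, permutation adjusted p = 0.0124) and -0.656 with Myh11 (rho -0.712, permutation adjusted p = 0.0319). Without the 2 hearts farthest from the median of the contractile gene, r was -0.779, -0.679 and -0.704. In the peptide study the same pairs gave -0.7225, -0.852 and -0.716, and -0.252, -0.501 and 0.0093 without heart Ab57, so none of the 3 passed the test there without that heart, though r stayed negative with Tagln and Smtn. Abcc9 and Notch3 moved together at r = 0.925 (rho 0.815, permutation adjusted p = 0.000225) in the peptide study and 0.753 without heart Ab57, and at 0.423 (rho 0.382, permutation adjusted p = 0.256) in the antibody study, or 0.687 (permutation adjusted p = 0.0278) without heart 22. The share of counts on the mitochondrial genome moved with these genes in the antibody study, at r = 0.863 with Abcc9, -0.706 with Tagln, -0.779 with Smtn and -0.625 with Myh11 over 16 hearts, given as a description. In the peptide study these values were 0.761, -0.557, -0.647 and -0.552 over 14 hearts, and 0.55, -0.168, -0.286 and -0.046 without heart Ab57. Its part in the correlations was not tested. Pdgfrb had an adjusted p over 0.05 with each of the other 9 genes in both studies.

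Levels of other cell types moved with some of these genes, as a description over hearts that share library, depth and tissue composition. In the peptide study the mean ventricular cardiomyocyte level had an r of -0.874 with Acta2, -0.926 with Cspg4 and 0.821 with Abcc9 over 14 hearts, and -0.623, -0.831 and 0.462 without heart Ab57. The atrial level had an r of 0.688 with Cnn1 and -0.689 with Abcc9, and 0.708 and -0.789 without that heart. In the antibody study the macrophage level had an r of 0.827 with Tagln and -0.817 with Abcc9 over 16 hearts, and the endothelial level 0.669 with Pdgfrb, or 0.484 without heart 22. The part of these cell types in the correlations was not tested.

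Likeness to Myh11 across hearts was ranked over all genes. Among 11361 genes tested in both studies, ranked by the smaller of their 2 r values with Myh11, the first 5 outside the group were Lmod1 (leiomodin, an actin nucleator of smooth muscle) at 0.974 over 14 and 0.849 over 16 hearts, Flna (filamin A) at 0.958 and 0.796, Prelid1 at 0.824 and 0.763, Arhgef25 at 0.912 and 0.752, and Ppp1r14a (an inhibitor of myosin phosphatase) at 0.928 and 0.747. Without heart Ab57 their r in the peptide study ranged from 0.648 (Prelid1) to 0.916 (Lmod1). The genes most like Pdgfrb were Gnaq at 0.691 and 0.730, Acvrl1 (the endothelial receptor ALK1) at 0.705 and 0.677, Sh2b3 at 0.719 and 0.656, Adgre5 at 0.627 and 0.766, and Sclt1 at 0.653 and 0.627. The most like genes were looked for with these values in hand, so the r values are a description.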

How the data were processed

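Total RNA of left ventricle was sequenced after stranded library preparation, and the study's methods name Salmon with the GENCODE vM24 transcripts. The submitters' processing notes give GRCm38. The authors deposited whole-number counts per gene for the peptide study and estimated counts per transcript for the antibody study. One column of the peptide table matched no sample and was not used. Transcripts were summed to genes with GENCODE vM21, which lists 99.21% of them, and rounded, and unlisted transcripts stayed as separate entries. The columns of each table name its mice, and the samples were grouped by their labels. Each sample is a separately numbered mouse.

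Differences were tested with edgeR 4.0.16 (quasi-likelihood, TMM, mean count of 10 or more, two-sided, Benjamini-Hochberg over all genes tested) in R 4.3.3, 1 fit per study and no covariate, and the test was tried on simulated counts. Intervals are 95%. Shares of transcripts were compared by exact permutation over hearts. Correlations used log2 CPM with a prior count of 2, 100000 permutations of hearts and Benjamini-Hochberg over 45 pairs, so the smallest permutation p is 1e-05. Alternatives were DESeq2 1.42.0, other scalings, no filter, 2 covariates and leaving out each heart. Hearts Ab51 to Sc48 are named as the peptide table names its columns. Depth was 4478991 to 8310478 counts per heart. The named genes are the 10, from 3 gene lists every gene with an unadjusted p under 0.05, at most 4 per list and comparison, with the 2 most abundant per list, and the 5 most like Myh11 and Pdgfrb. Actg2, Myl9, Kcnj8, Tbx18, Cald1, Nrarp and the marker genes Sln, Myl7, Myl2 and Ryr2 are named beyond that rule. They were chosen after their values were seen. Actc1 and Acta1 are named because reads can be shared with them, and Gm48529 and Pcsk7 because they overlap Tagln. The genes and lists were chosen with earlier results of these data known. Sequences come from GENCODE and RefSeq.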

Additional observations from a re-analysis of the deposited data

Results flagged for a closer look

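Among 40 sets of values (10 genes in 4 groups), 7 had a heart whose gap to its nearest neighbour exceeded Dixon's 95% limit, and all 7 were Aβ42 heart Ab57 as the highest of its 7 hearts; chance gives about 1 in 20 sets. The values were 1104 CPM for Acta2 (next heart 177.5), 750 for Myh11 (next 129), 37.8 for Tagln (next 6.496), 124 for Cnn1 (next 13.2), 165 for Mylk (next 59.4), 280 for Smtn (next 163) and 76.1 for Cspg4 (next 31.7). The gap was 0.707 to 0.897 of the range of the group, where the limit is 0.568. The 7 sets share 1 heart and are not independent.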

How the results depend on the processing

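Several peptide differences changed sign with the handling of heart Ab57 or with the atrial covariate, while that of Notch3 kept its sign in every setting. Leaving out single hearts gave ranges of -0.15 to 1.40 for Acta2, -0.36 to 1.13 for Myh11, -0.22 to 1.70 for Tagln, -0.19 to 0.31 for Mylk, -0.0071 to 0.25 for Smtn, -0.18 to 0.31 for Cspg4 and -0.021 to 0.069 for Pdgfrb, the lowest without heart Ab57 (Pdgfrb without heart Ab52). In DESeq2 the values were -0.14 for Acta2, -0.33 for Myh11 and 0.079 for Cnn1, where it replaced the counts of heart Ab57 in Acta2, Myh11 and Cnn1 as outliers. With the atrial score as a covariate they were -0.21 (Acta2), -0.50 (Myh11), -0.37 (Tagln), -0.42 (Cnn1), -0.11 (Mylk), -0.071 (Smtn), 0.11 (Abcc9), -0.20 (Cspg4), 0.092 (Pdgfrb) and -0.043 (Notch3, unadjusted p = 0.748); the cause was not tested. With the mitochondrial share as a covariate they were 0.46 (Acta2), 0.18 (Myh11), 0.71 (Tagln), 1.305 (Cnn1) and -0.33 (Notch3, unadjusted p = 0.0104, edgeR adjusted p = 0.332). In the antibody study Smtn was -0.037 with total counts as library sizes and -0.021 to 0.043 without 1 heart, Cnn1 ran from -0.25 to 0.32 without 1 heart, and with the mitochondrial share as a covariate Tagln was 0.066, Abcc9 -0.12, Myh11 -0.021 and Notch3 -0.24 (unadjusted p = 0.0433). None of 200 peptide and 220 antibody alternative values had an adjusted p under 0.05. In the peptide study DESeq2 gave no adjusted p for Tagln and Cnn1. Of the 10 genes, 0 to 3 had an unadjusted p under 0.05 without 1 peptide heart (3 without Ab52, 2 without Ab60, 0 without Ab57). Without 1 antibody heart, 0 to 2 had it (2 without 15). Over all genes the counts were 957 of 12013 (Ab52), 973 of 12000 (Ab60), 609 of 11837 (Ab57) and 518 of 12259 (antibody heart 15). Called pairs in the peptide study numbered 35, and 9 without heart Ab57. They numbered 7 without the 2 hearts farthest from the median of the first gene of each pair, in the order in which the 10 genes are listed. Chosen after seeing the data, leaving out heart Ab57 took listed genes with an unadjusted p under 0.05 from 5 to 0 (smooth muscle) and from 1 to 0 (PDGF and Notch), and leaving out heart 22 took the smooth muscle list from 0 to 1 (Cald1) and the PDGF and Notch list from 2 to 3 (Nrarp added), beside 3% of all genes. No paired analysis was possible because the groups share no mouse numbers. Over all peptide genes DESeq2 called 12, and edgeR 3 without heart Ab52 and 1 without heart Sc48; edgeR and DESeq2 called 0 antibody genes. With total counts as library sizes the median of all genes was 0.03 (peptide) and -0.06 (antibody).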

Other observations

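Tagln stood at different levels in the 2 tables, which were made and scaled separately. Its median was 2.05 CPM over 14 peptide hearts and 25.5 CPM over 16 antibody hearts, a ratio of 12.4, while the ratio of the other 9 genes was 0.478 (Abcc9) to 0.978 (Cspg4). Of 11361 genes tested in both tables, 0.414% had a higher ratio than Tagln. This was noticed after the values were seen.

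Cnn1 and Tagln had the highest coefficients of variation between hearts in both tables. Over all 14 peptide hearts these were 258% and 180%, before Acta2 at 161% and Myh11 at 144%. Without heart Ab57 the coefficient of variation in the peptide study was 90.3% for Cnn1, 74.5% for Tagln, 45.0% for Myh11 and 43.1% for Acta2, and 10.2% for Pdgfrb and 12.1% for Smtn. In the antibody study it was 66.7% for Cnn1, 37.6% for Tagln, 33.8% for Myh11 and 26.6% for Acta2, and 8.19% for Smtn and 12.2% for Cspg4.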
